A study of Homo sapiens with 10 samples.

Results

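MX1, MX2, SAMD9 and SAMD9L are 4 interferon-responsive genes, chosen by their symbols from the 32738 genes of the count tables, and all 4 were found. They lie as neighbouring pairs in the human genome (hg19, GENCODE v44 lifted to that build). MX2 (ENSG00000183486) spans chromosome 21, 42733926 to 42781320, on the plus strand, and MX1 (ENSG00000157601) follows it at 42791947 to 42841998, with 10626 bases between them. SAMD9 (ENSG00000205413) spans chromosome 7, 92728826 to 92747336, on the minus strand, and SAMD9L (ENSG00000177409) lies at 92759369 to 92777698 on the same strand, 12032 bases away. Single-cell RNA sequencing counted their transcripts in HCT-116, a line derived from a human colon carcinoma. The DOX group comprised 2 libraries of cells after a 24 h exposure to 200 nM doxorubicin, an anthracycline that damages DNA, followed by 6 d of recovery in drug-free medium. The untreated group comprised 2 libraries of the same line without the drug. A survey of all genes after DOX had been the aim, with the question whether interferon-stimulated genes were raised in dividing or in arrested cells.

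Interferons bind receptors that activate JAK kinases, and the kinases switch on transcription factors that join IRF9 in the complex ISGF3. ISGF3, and its unphosphorylated form U-ISGF3 in long responses, switches on interferon-stimulated genes through a short DNA element in their promoters. MX1 and MX2 encode GTPases of the dynamin superfamily. MX1 blocks influenza and other viruses in the cytoplasm, and MX2 sits at the nuclear envelope and blocks HIV-1 and herpesviruses. SAMD9 and SAMD9L encode large related cytoplasmic proteins that restrict poxviruses and slow cell growth, and inherited mutations that activate either gene cause bone marrow failure with loss of chromosome 7.

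The promoters were searched for the core of that element. RefSeq promoters (GRCh38.p14, 250 bases before to 50 bases after each start) were at hand for 3 of the 4 genes, and MX2 is named only. The core searched was GAAANNGAAA, on both strands, and the looser 9-letter form was AAANNGAAA, which lies within the 10-letter core. The core occurred in 3.57% and the looser form in 10.5% of all 35116 promoters. Among 53 other interferon-stimulated genes that were matched by symbol, 33 held the core in at least 1 promoter (62.3%), against 4.38% of all 27305 genes. SAMD9 held the core with its first base at position -136 from the start. MX1 held it with its first base at position 12 of the transcript, counted from 1, at the first of its 3 starts, and on the opposite strand at position -196 of the third. SAMD9L held only the looser form, at position -47. The windows below show the match in capitals with 10 bases on either side, written along the strand of the gene. They stand at chr7:93118096-93118125 (minus strand) for SAMD9, chr21:41420559-41420588 (plus strand) for MX1 and chr7:93148414-93148442 (minus strand) for SAMD9L.
SAMD9: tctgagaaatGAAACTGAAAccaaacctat
MX1: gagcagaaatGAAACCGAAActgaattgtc
SAMD9L: ttctaaagcaAAACTGAAActgtctatac
The capitals of SAMD9 and SAMD9L share their last 9 letters. These matches describe letters in these windows, and binding was not measured.

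Values come from deep barcodes, those with at least 20000 UMIs (unique molecular identifiers, each standing for a captured mRNA molecule) and a mitochondrial share under 8%. There were 1307 and 1080 of them among 8000 barcodes in each DOX library, and 3572 and 2137 among 4701 and 2528 in the untreated libraries. Their median depth was 72676 and 84829.5 UMIs in the DOX libraries, and 72791.5 and 81168 UMIs in the untreated libraries. Of 23171 distinct barcodes, 57 occurred in more than 1 library, and 4 of the 8092 deep ones did. As a check of the labels, CDKN1A, the p53 target that encodes the cell cycle inhibitor p21, stood at 281 and 240 CPM (UMIs of the gene per 1000000 UMIs) in the DOX libraries, against 29.1 and 29.3 CPM in the untreated ones. MKI67, which marks dividing cells, stood at 175 and 186 CPM, against 252 and 293 CPM in untreated cells. All 7 epithelial markers were detected in every library, and 6 of them, led by CDH1 (log2 fold change 1.12), CLDN4 (0.95) and KRT19 (0.61), were higher after DOX and EPCAM was lower (-0.37). Markers of blood, connective tissue, vessels and liver (12 of 13 were in the table) summed to 6.37 and 7.01 CPM in the DOX libraries, against 3.23 and 3.50 CPM in the untreated ones. Of the 6 that could be tested 4 were higher after DOX, against 28.2% of all tested genes. LYZ of myeloid cells had 0.510 and 0.567 CPM in the DOX libraries, against 0.0926 and 0.0402 CPM in the untreated ones, and PTPRC of blood cells had 0.366 and 0.137 CPM, against 0.0103 and 0.0251 CPM. PTPRC could be tested only through its level in the DOX libraries, where it is high. COL1A1 of connective tissue had 4.18 and 4.50 CPM, against 2.69 and 2.75 CPM. CD3E of T cells was at 0 in DOX replicate 2. Their part in the results was not tested.

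All 4 genes were called higher after DOX in the edgeR test below, as were 28.2% of all 21563 tested genes. MX1 had 117 and 106 UMIs, or 1.13 and 1.04 CPM, in the DOX libraries, against 37 and 29 UMIs, or 0.127 and 0.146 CPM, in the untreated libraries. MX2 had 113 and 77 UMIs (1.09 and 0.752 CPM) in the DOX libraries, against 7 and 6 UMIs (0.0240 and 0.0301 CPM) in the untreated ones. Both MX genes were thus rare transcripts even after DOX. SAMD9 was the abundant member, with 6050 and 5634 UMIs (58.3 and 55.1 CPM) in the DOX libraries, against 2114 and 1485 UMIs (7.25 and 7.46 CPM) in the untreated libraries. SAMD9L had 69 and 48 UMIs (0.665 and 0.469 CPM) after DOX, against 3 and 1 UMIs (0.0103 and 0.00502 CPM) in untreated cells. SAMD9 and MX1 therefore had a measurable level without the drug, while SAMD9L was close to the limit of detection there. Fewer cells that express a gene and fewer molecules per cell cannot be told apart in these sums.

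**Figure D1:**
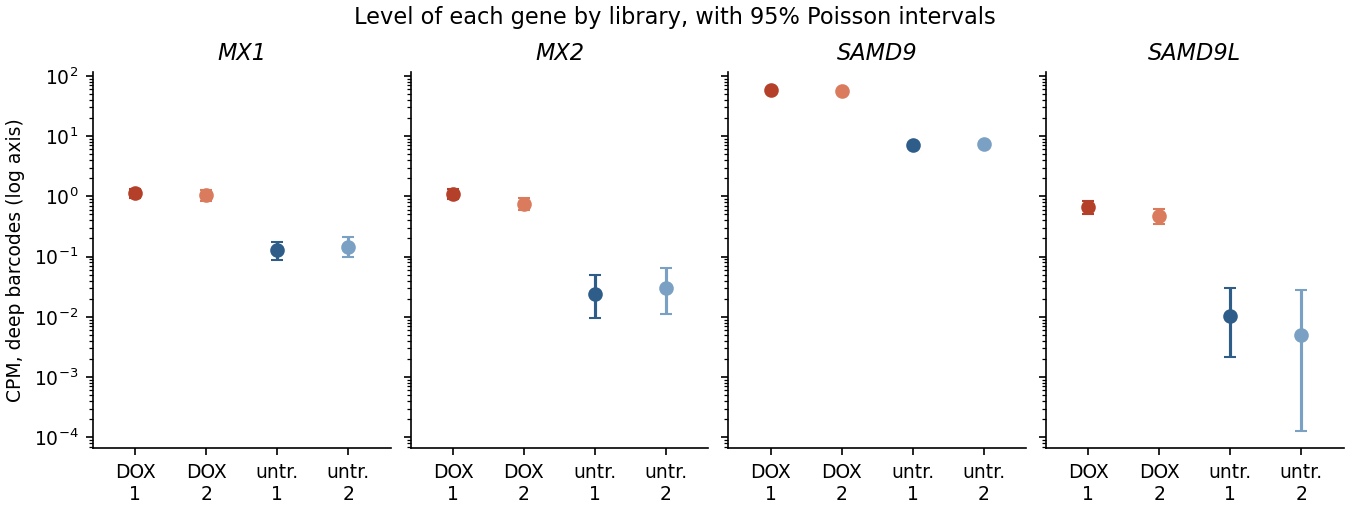
CPM of each gene (log axis) in the 2 DOX libraries and the 2 untreated libraries, with points for libraries and bars for 95% Poisson intervals, which cover counting error only. SAMD9 sits at 58.3 and 55.1 CPM in the DOX libraries and at 7.25 and 7.46 CPM in the untreated ones.

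In edgeR's quasi-likelihood test on sums per library (n = 2 against 2, adjusted over 21563 genes) all 4 genes passed. The log2 fold change was 2.78 for SAMD9 (SE 0.07, adjusted p = 4.2e-08) and 2.82 for MX1 (SE 0.22, adjusted p = 2.2e-05). It was 4.91 for MX2 (SE 0.35, adjusted p = 1.4e-05) and 5.84 for SAMD9L (SE 0.47, adjusted p = 2.4e-05). As ratios of pooled CPM, with 95% intervals for counting error only, MX1 was 8.04-fold (6.08 to 10.8), SAMD9 7.73-fold (7.44 to 8.02), MX2 34.8-fold (19.9 to 66.5) and SAMD9L 69.6-fold higher (26.5 to 260). The intervals of MX1 and SAMD9 overlap, and the difference between the genes was not tested. That of SAMD9L rests on 4 untreated UMIs. The background was high, and 28.2% of all tested genes were called higher and 26.4% lower, against which the 4 of 4 higher calls are to be read. MX2 and SAMD9L passed the filter on low counts only through the DOX libraries, where they are high. TMM scaling lowers each log2 fold change by a mean of 0.168 against scaling by total UMIs, under which 8472 genes were higher and 3259 lower in place of 6077 and 5695. An exact permutation test of 2 against 2 libraries cannot give a p below 0.333. The sources do not say whether the replicates were separate cultures, so each p measures the spread between these libraries.

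Other genes of the interferon response moved in the same direction. Counts of calls among them are to be read against the 28.2% higher and 26.4% lower over all tested genes. Among 26 tested members of the other U-ISGF3-induced genes 25 were higher, none was lower and TMEM140 was not called, with a median log2 fold change of 2.89 against 0.04 over all tested genes. The smallest adjusted p belonged to IFI27 (6.14), a mitochondrial interferon-induced protein, OAS1 (7.50), which makes the signal that activates RNase L, and BST2 (4.59), which tethers budding viruses. The changes of SAMD9 and MX1 lay close to that median, and those of MX2 and SAMD9L above it. Among 40 other type I interferon-stimulated genes 36 were higher and 1, PNPT1, was lower, with a median of 1.25. Led by IFI6 (5.69), PARP9 (3.01) and IFIT2 (5.36), these genes had a median below the change of each of the 4 genes. The study examined U-ISGF3-induced genes in these same cells, so this list is not independent evidence of its direction.

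Of 14 interferon signaling proteins 4 were higher and 4 lower, close to the 28.2% and 26.4% over all tested genes, and the median log2 fold change was 0.07. IRF9, the DNA-binding part of ISGF3, had 4.06 and 5.28 CPM in the DOX libraries, against 0.858 and 1.04 CPM in the untreated ones (2.14). STAT2, which joins it in ISGF3, changed by 0.90 and IRF1, a transcription factor of the interferon response, by 0.75. The interferon genes themselves were almost silent. Of 9 interferon genes only IFNE passed the filter, with 0.327 and 0.235 CPM in the DOX libraries, against 0.106 and 0.121 CPM in the untreated ones (log2 fold change 1.14, called higher). The summed level of the 9 genes was 3.14 CPM in DOX replicate 1 and 0.283 CPM in DOX replicate 2, against 0.117 and 0.131 CPM in the untreated libraries. DOX replicate 1 stood apart in this sum. MX2 had 1.09 CPM in DOX replicate 1 and 0.752 CPM in DOX replicate 2, and SAMD9L had 0.665 and 0.469 CPM. MX1 (1.13 and 1.04 CPM) and SAMD9 (58.3 and 55.1 CPM) lay closer together in proportion. The Poisson intervals of the replicates, which cover counting error only, overlapped for MX2 (0.897 to 1.31 and 0.594 to 0.940 CPM). They also overlapped for SAMD9L (0.517 to 0.841 and 0.346 to 0.622 CPM) and for MX1. Those of SAMD9 did not (56.8 to 59.8 and 53.6 to 56.5 CPM). The part of interferon transcripts in these levels was not tested.

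Relatives of the 4 genes changed in both directions, and the tested chromosomal neighbours changed less than the 4 genes. Of 15 other dynamin superfamily GTPases 6 were higher and 5 lower, with a median log2 fold change of 0.01, and these counts, like those of the neighbours, are to be read against the 28.2% higher and 26.4% lower over all tested genes. The higher ones with the smallest adjusted p were guanylate-binding proteins induced by interferon, GBP5 (20 and 14 UMIs in the DOX libraries, against none in the untreated ones) and GBP1 (16 and 13 UMIs, against 1 and 1), and DNM3 (0.54), which cuts vesicles from membranes. GBP5 and GBP1 passed the filter on low counts only through the DOX libraries, where they are high. Of 6 tested neighbours of MX1 and MX2 on chromosome 21, 2 were higher and 1 lower: the protease gene BACE2 changed by 0.33, the kinase gene RIPK4 by 0.45 and PRDM15 by -0.24. Of 5 tested neighbours of SAMD9 and SAMD9L on chromosome 7, 1 was higher and 2 were lower. The cell cycle kinase gene CDK6 changed by -0.29, GNGT1 by 0.18 and VPS50 by -0.19. COL1A2, a fibroblast marker among these neighbours, had no UMI in any library. All 11 tested neighbours lay between -0.29 and 0.68 on the log2 scale, below the 2.78 of SAMD9, the smallest change among the 4 genes.

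**Figure D2:**
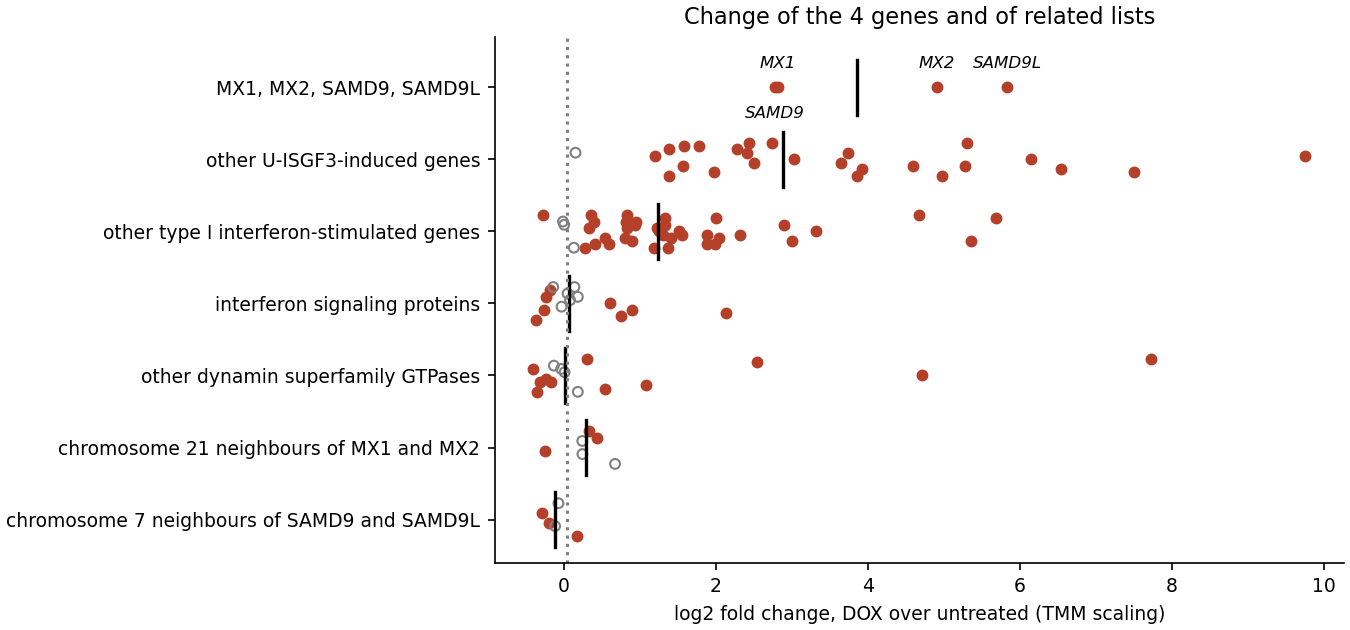
Log2 fold change of each tested gene (DOX over untreated, TMM scaling) by list, with filled points for genes called by edgeR, open points for genes not called, black bars for list medians and a dotted line for the median of all genes tested (0.04). MX1, MX2, SAMD9 and SAMD9L lie at 2.82, 4.91, 2.78 and 5.84, within the range of the other U-ISGF3-induced genes.

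SAMD9 was found in most deep DOX barcodes and the other 3 genes in few. With all UMIs, 83.8% and 85.6% of deep barcodes in the DOX libraries held a SAMD9 UMI, against 37.6% and 40.9% in the untreated libraries. After each barcode was thinned at random to 20000 UMIs, which removes differences in depth, the shares were 55.4% and 53.5% in the DOX libraries, against 13.2% and 12.1% in the untreated ones. MX1 was found in 6.96% and 8.98% of DOX barcodes, against 0.952% and 1.26% of untreated ones. Thinning left 1.53% and 2.22% after DOX, against 0.308% and 0.281% in untreated cells. MX2 was found in 4.74% and 3.80% of DOX barcodes, against 0.196% and 0.281% of untreated ones. SAMD9L was found in 3.67% and 3.43% of DOX barcodes, against 0.0840% and 0.0468% of untreated ones. With thinning MX2 was left in 1.38% and 1.30% of DOX barcodes, against 0.0560% in untreated replicate 1. It fell to 0 of 2137 barcodes in untreated replicate 2, which allows a share with a UMI at that thinned depth of up to 0.140% (3 counts). SAMD9L was left in 0.918% and 1.11% of DOX barcodes, against 0.0468% in untreated replicate 2. It fell to 0 of 3572 in untreated replicate 1, which allows up to 0.0840%. DOX barcodes with at least 1 of MX1, MX2 and SAMD9L made up 13.9% and 14.8%, with exact 95% intervals of 12.1 to 15.9% and 12.7 to 17.1%. Such untreated barcodes made up 1.23% and 1.59%, with intervals of 0.896 to 1.65% and 1.10 to 2.22%. None of the 4 genes was found in 15.3% and 13.4% of DOX barcodes, against 61.7% and 58.4% of untreated ones.

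A culture of a single line holds no cell type that should lack these genes, so no background share of free RNA could be set. DOX barcodes with fewer than 2000 UMIs, 5011 and 5448 in number, were taken with no mitochondrial limit. They held SAMD9 at 51.1 and 41.7 CPM, below the 58.3 and 55.1 CPM of deep barcodes. The Poisson intervals did not overlap in DOX replicate 1 (46.1 to 56.6 against 56.8 to 59.8 CPM). Nor did they in DOX replicate 2 (37.0 to 46.7 against 53.6 to 56.5 CPM). In the deep DOX barcodes SAMD9 ranged from 51.8 to 60.9 CPM over classes starting at 20000, 50000 and 100000 UMIs. In DOX replicate 2 its intervals in the 50000 class (49.7 to 53.9 CPM) and the 100000 class (55.8 to 59.9 CPM) did not overlap. The untreated SAMD9 range over the same classes was 6.43 to 8.18 CPM. SAMD9L, on few UMIs, stood at 0.459, 0.511 and 0.938 CPM over these classes in DOX replicate 1. In DOX replicate 2 SAMD9L stood at 0.550, 0.394 and 0.528 CPM. The part of free RNA in the shares was not tested.

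SAMD9 molecules were spread over DOX cells more widely than random sampling of equal cells would give. The median deep barcode held 3 SAMD9 UMIs in each DOX library, against 0 in each untreated library. At least 10 UMIs were counted in 172 and 186 DOX barcodes, against 0 and 1 untreated barcodes. The highest barcode held 62 and 56 UMIs in the DOX libraries, against 8 and 12 in the untreated libraries. After thinning, the ratio of variance to mean, which is 1 for random sampling of equal cells, was 2.30 and 2.19 in the DOX libraries, against 1.12 and 1.15 in the untreated ones. This ratio grows with the level. Its excess over 1, divided by the mean thinned count, was 1.13 and 1.06 in the DOX libraries, against 0.796 and 1.14 in the untreated ones, so on that scale the groups overlapped. MX2 was rarer, and its ratio was 1.78 and 2.18 after DOX. These ratios rest on 25 and 20 thinned UMIs in 18 and 14 barcodes, with 4 and 5 in the highest barcode. Before thinning, its positive DOX barcodes held a mean of 1.82 and 1.88 UMIs. Every untreated MX2-positive barcode held exactly 1. For MX1 the ratio was 1.08 and 0.979 in the DOX libraries, close to random sampling at this low level. For SAMD9L it was 0.992 and 1.61, on 12 and 16 thinned UMIs.

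**Figure D3:**
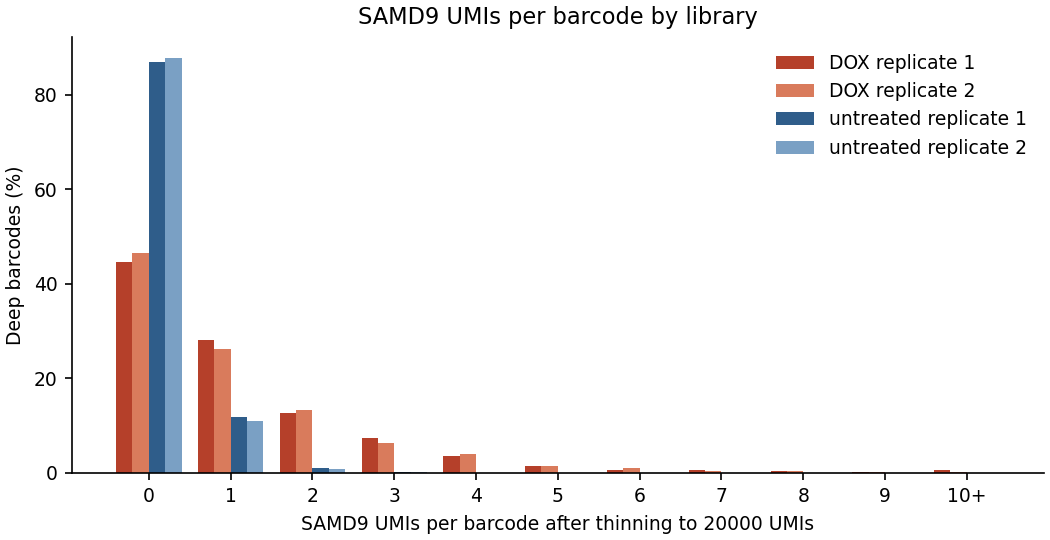
Share of deep barcodes (%) by the number of SAMD9 UMIs after thinning to 20000 UMIs, with a bar for each library and the last class holding 10 or more. In the DOX libraries 44.6% and 46.5% of barcodes fall in the class of 0 and the tail reaches the last class, while the untreated libraries end at 4 and 5 UMIs.

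Within the DOX libraries MX2 and SAMD9L met in the same barcodes more often than independent detection would give. They were found together in 9 barcodes of DOX replicate 1 and 5 of DOX replicate 2, where their shares alone would give 2.28 and 1.41. MX1 and MX2, close neighbours on the chromosome, were found together in 7 and 4 barcodes, where 4.32 and 3.68 would be met by independence. MX1 and SAMD9L were found together in 3 and 6, where 3.34 and 3.32 would be met. These counts are small, and deeper barcodes hold more of every gene: barcodes with 2 of the 3 rare genes had medians of 126033 and 133337 UMIs. At equal depth, barcodes with an MX2 UMI before thinning held a mean of 2.40 and 2.73 thinned SAMD9 UMIs, against 1.09 and 1.06 in barcodes without. For MX1 the means were 1.57 and 1.58 in positive barcodes, against 1.12 and 1.07 in negative ones.

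Pearson correlations over cells, on the log of UMIs per 10000, were weak between the 4 genes in the DOX libraries. MX2 and SAMD9 had r = 0.179 in DOX replicate 1 and 0.258 in DOX replicate 2 (n = 1307 and 1080 barcodes). SAMD9 and SAMD9L had 0.206 and 0.0903, MX2 and SAMD9L 0.137 and 0.0819, and MX1 and SAMD9 0.0902 and 0.127. MX1 had 0.0882 and -0.0235 with MX2, and -0.0274 and -0.00411 with SAMD9L. After thinning, SAMD9 and SAMD9L had 0.124 and 0.0399, MX2 and SAMD9 had 0.150 and 0.185, and the sign turned in DOX replicate 2 for MX2 and SAMD9L (0.163 and -0.0110) and for MX1 and SAMD9L (-0.0119 and 0.0335). In the untreated libraries all r between the 4 genes lay between -0.0107 and 0.0991, where the rare genes had 1 to 37 UMIs. Cells of a library share its preparation, and r of rare genes is held down by sparse counts, so these are descriptions without a test.

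The genes most like SAMD9 over DOX cells were mostly interferon-stimulated genes. Among 14936 genes with a UMI in at least 5% of deep barcodes of both DOX libraries, IFIT1 (r = 0.514 and 0.508), PARP9 (0.471 and 0.523), SP110 (0.458 and 0.505) and SP100 (0.477 and 0.451) were among the 5 that ranked highest by the lower r of the 2 libraries. IFIT1 binds viral RNA, PARP9 modifies proteins with ADP-ribose, and SP110 and SP100 are nuclear body proteins. Genes of the 2 interferon-stimulated lists made up 24 of the top 25 for SAMD9, against 0.395% of all genes ranked. For MX2 they made up 22 of 25, led by IFIT3 (0.258 and 0.249), USP18 (0.257 and 0.247), RSAD2 (0.312 and 0.246), OAS1 (0.236 and 0.295) and C19orf66 (0.244 and 0.220). For MX1 and SAMD9L 7 of 25 were of those lists. MX1 was led by IFIT1 (0.124 and 0.116), HERC6, PARP14, RP11-634H22.1 and HERC5, and SAMD9L by C5orf56 (0.175 and 0.152), DTX3L, IFI44, DAPP1 and PSMB9. With thinned counts these r were lower. SAMD9 had 0.333 and 0.338 with IFIT1, MX2 had 0.0957 and 0.173 with IFIT3 and 0.0677 and 0.0261 with RSAD2, MX1 had 0.0339 and 0.0731 with IFIT1, and SAMD9L had 0.0980 and 0.0294 with C5orf56.

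For the question on dividing and arrested cells, deep barcodes were split by whether a UMI of MKI67, a gene of dividing cells, remained after thinning. In the study, the cluster linked to arrest and senescence had far fewer genes detected per cell than the proliferating cluster. Deep DOX barcodes held medians of 8755 and 9178 genes, and shallow barcodes were not part of this split. It therefore does not compare the clusters of the study. The DOX libraries held 889 and 764 positive and 418 and 316 negative barcodes, and the untreated libraries 3389 and 2054 positive and 183 and 83 negative ones. In the DOX libraries the positive barcodes had medians of 70624 and 82432 UMIs, against 80277.5 and 98026 UMIs in the negative ones, and the part of depth in the comparison was not tested. A barcode without such a UMI is not thereby an arrested cell. With all UMIs 996 and 857 DOX barcodes were MKI67-positive and 311 and 223 negative. CDKN1A, the gene of the arrest protein p21, was lower in the MKI67-positive DOX class (log2 fold change -1.96, SE 0.08, edgeR adjusted p = 1.1e-10). SAMD9 had 56.6 and 56.3 CPM in MKI67-positive barcodes of the DOX libraries, against 61.4 and 52.3 CPM in negative ones. The 2 libraries thus lay on opposite sides, and the log2 fold change of 0.10 (TMM scaling, SE 0.07, edgeR adjusted p = 0.219, library as block, n = 2) did not pass; with total UMIs it was -0.0082. MX1 had 1.13 and 1.13 CPM in positive barcodes, against 1.12 and 0.840 CPM in negative ones (0.32, adjusted p = 0.536). Untreated values of both classes reached 11.01 CPM for SAMD9 and 0.238 CPM for MX1, against lowest DOX values of 52.3 and 0.840 CPM.

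MX2 was lower in the MKI67-positive DOX cells, at the edge of the threshold. It had 0.762 and 0.556 CPM in positive barcodes, against 1.71 and 1.18 CPM in negative ones, a log2 fold change of -1.02 (SE 0.40, edgeR adjusted p = 0.0496), and 23.4% of all 19716 tested genes were called lower. The call was lost with DESeq2 (adjusted p = 0.204), with MKI67 classes from all UMIs (0.119), without DOX replicate 1 (0.348) and without DOX replicate 2 (0.222), while the direction held. SAMD9L had 0.337 and 0.427 CPM in positive barcodes, against 1.29 and 0.560 CPM in negative ones (-1.09, SE 0.53, adjusted p = 0.105), which did not pass.

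The DOX effect on SAMD9 differed between the MKI67 classes in edgeR's test on all 4 libraries, but not under every setting. SAMD9 had 7.17 and 7.34 CPM in MKI67-positive untreated barcodes, against 9.05 and 11.01 CPM in negative ones (114 and 68 UMIs). The interaction was 0.60 on the log2 scale (SE 0.14, edgeR adjusted p = 0.00715), that is, a larger DOX effect in the MKI67-positive class, and 17.4% of all tested genes had such a higher interaction. It was 0.53 with DESeq2 (adjusted p = 0.0188). The call was lost, with the direction kept, with scaling by total UMIs in place of TMM (0.43, adjusted p = 0.0552), without untreated replicate 1 (0.67, adjusted p = 0.0985) and without untreated replicate 2 (0.41, adjusted p = 0.168). The last 2 settings leave 1 untreated library, which is assumed to vary like the DOX libraries. Without DOX replicate 1 the interaction was 0.62, and without DOX replicate 2 it was 0.41. Each of these settings leaves 1 DOX library, whose variation is assumed in the same way. In these MKI67 comparisons TMM moved the median log2 fold change of all genes to 0.05 for the interaction, against -0.12 with total UMIs, and to -0.0037 for MKI67-positive against negative DOX barcodes, against -0.11. Of all calls 76.8% were higher interactions with TMM and 49.4% with total UMIs, and in the DOX barcodes 55.3% of calls were higher in the MKI67-positive class with TMM and 43.6% with total UMIs. For MX1, MX2 and SAMD9L the untreated negative barcodes held 3, 0 and 1 UMIs in replicate 1 and none in replicate 2, so no difference could be detected at this depth.

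**Figure D4:**
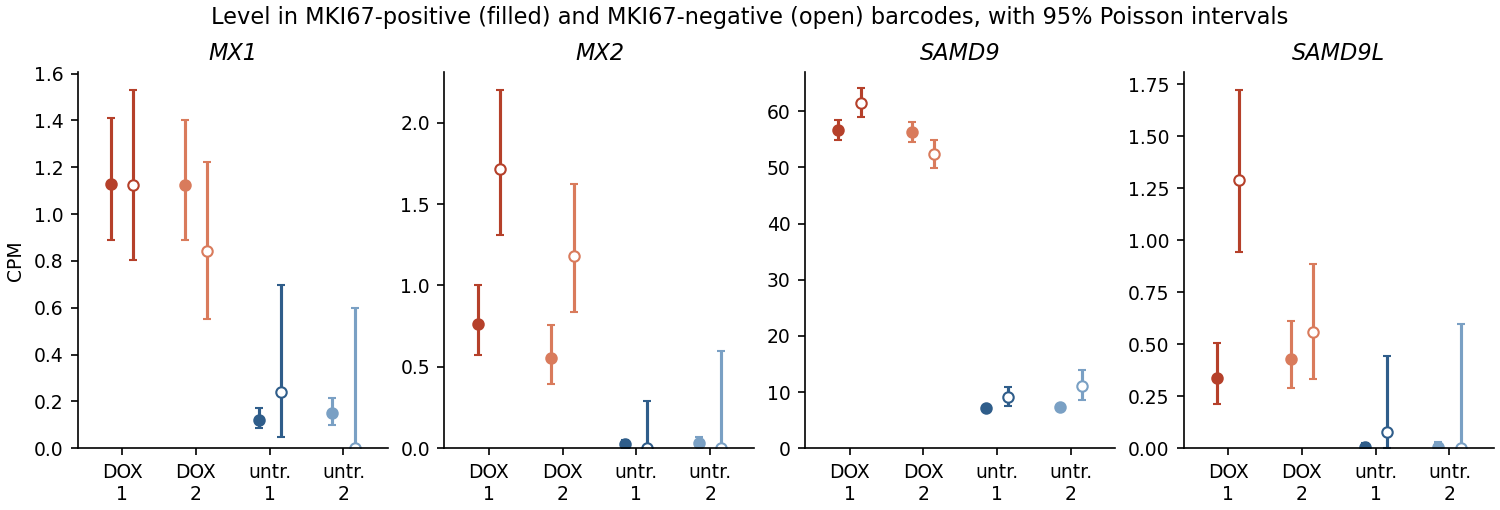
CPM of each gene in MKI67-positive (filled) and MKI67-negative (open) deep barcodes of the 2 DOX and the 2 untreated libraries, with 95% Poisson bars. MX2 stands lower in the filled points of both DOX libraries (0.762 and 0.556 CPM) than in the open ones (1.71 and 1.18 CPM), while SAMD9 lies on opposite sides in the 2 libraries.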

How the data were processed

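Raw UMI counts per gene and barcode were deposited as the authors made them with Cell Ranger (7.2.0 in the file headers, 7.0.0 in the processing notes) on hg19, with no normalization and with 8000 barcodes forced in each DOX library. Deposited bulk samples (6) were not analysed here. The files hold no other sample columns. Deep barcodes had at least 20000 UMIs and a mitochondrial share under 8%; doublets were not removed. UMIs were summed per library and tested with edgeR 4.0.16 (TMM, filterByExpr, quasi-likelihood F test, Benjamini-Hochberg adjustment over all genes, threshold 0.05), with DESeq2 1.42.0 as alternative, in R 4.3.3. The MKI67 split and interaction had the library as block. Shares and levels carry exact binomial and Poisson 95% intervals, which cover counting error only. Thinning drew 20000 UMIs per barcode without replacement (Python 3.11.15, numpy 2.4.6, scipy 1.17.1). The pipeline was tested on simulated data. Named genes were the 4 members, 3 genes per list by smallest adjusted p, and 5 companions by highest r; PNPT1, TMEM140, COL1A2, CD3E, EPCAM and IFNL1 were added after their values were seen. Members and lists were chosen with earlier results of these data known. Results for 1 gene of the lists are not reported here.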

Additional observations from a re-analysis of the deposited data

Results flagged for a closer look

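The DOX effect on SAMD9 was larger in MKI67-positive than in MKI67-negative barcodes by 0.60 on the log2 scale in the test of the difference itself (edgeR adjusted p = 0.00715). The call was lost with total UMIs in place of TMM (0.43), without untreated replicate 1 (0.67) and without untreated replicate 2 (0.41). The untreated MKI67-negative class holds only 183 and 83 barcodes and 114 and 68 SAMD9 UMIs. The part of cell number in this difference was not tested.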

How the results depend on the processing

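All 4 genes stayed higher after DOX and past the threshold in each of 17 alternatives, with log2 fold changes of 2.65 to 2.95 for SAMD9, 2.44 to 2.99 for MX1, 4.59 to 5.40 for MX2 and 5.47 to 6.46 for SAMD9L. One of these, without the 5% of barcodes with most UMIs, was chosen after seeing the data. The replicate numbers mark no stated pairing (r of same-numbered deviations 0.145 over 10800 genes), and a replicate block gave 2.78 for SAMD9, 2.82 for MX1, 4.92 for MX2 and 5.88 for SAMD9L, with 6370 genes higher and 5941 lower. Scaling by total UMIs with no TMM factors left 3259 genes lower in place of 5695. For MX2 the MKI67 contrast lost its call at -1.07 with DESeq2, at -0.93 with MKI67 from all UMIs and at -1.12 to -1.06 with a DOX library left out; that of SAMD9 was -0.0082 with total UMIs and -0.074 to 0.14 with a DOX library left out, and was never called. The interaction of SAMD9 lost its call at 0.43 with total UMIs and lay between 0.41 and 0.67 with 1 library left out, where MX1 ran between -6.10 and 1.25 and SAMD9L between -3.06 and 2.46, uncalled. These interaction settings and total UMIs in the MKI67 contrasts were also chosen after seeing the data. Higher interactions numbered 2197 with DESeq2, against 3437. With thinned UMIs r of MX2 and SAMD9L in DOX replicate 2 was -0.011, and that of SAMD9 and SAMD9L in DOX replicate 1 was 0.124 (Spearman 0.141). The causes were not tested. With 1 to 7 untreated UMIs per library, depth limits the folds of MX2 and SAMD9L.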

Other observations

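Interferon UMIs of DOX replicate 1 were concentrated in 3 deep barcodes, which were picked after their values were seen (at least 5 UMIs of the 9 interferon genes). They held 281 of the 326 interferon UMIs of that library, of which IFNL1 alone had 127 in all barcodes. The same 3 barcodes held 8 MX1 UMIs in 1 barcode, 7 MX2 UMIs in 1 barcode, 50 SAMD9 UMIs over all 3 and 3 SAMD9L UMIs in 2. No barcode of DOX replicate 2 or of the untreated libraries reached 5 interferon UMIs. Without these barcodes DOX replicate 1 stood at 1.05 CPM for MX1, 1.02 CPM for MX2, 57.9 CPM for SAMD9 and 0.637 CPM for SAMD9L.

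Deep barcodes with a mitochondrial share of 8% or more, left out above, also held the 4 genes at higher levels in the DOX libraries (579 and 651 barcodes) than in the untreated ones (395 and 173 barcodes). SAMD9 stood at 59.6 and 59.8 CPM in the DOX barcodes, against 8.48 and 10.01 CPM in untreated ones. MX1 stood at 1.45 and 1.48 CPM, against 0.250 and 0.213 CPM. MX2 stood at 1.38 and 1.28 CPM, against 0.0998 CPM in untreated replicate 1 and 0 UMIs in untreated replicate 2. SAMD9L stood at 0.882 and 1.00 CPM, against 0 UMIs in untreated replicate 1 and 0.106 CPM in untreated replicate 2. In DOX replicate 2 the 95% Poisson intervals of SAMD9, MX2 and SAMD9L lay above those of the deep barcodes under 8%, and that of MX1 overlapped. For SAMD9L they were 0.760 to 1.30 CPM, against 0.346 to 0.622 CPM. In DOX replicate 1 the intervals overlapped for all 4 genes, with 0.627 to 1.21 CPM against 0.517 to 0.841 CPM for SAMD9L. These intervals cover counting error only.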
